A study of Callithrix jacchus with 3 samples.

Results

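The YAP, TEAD and LATS genes of the Hippo pathway were followed in cells that had been derived from marmoset embryonic stem cells. The common marmoset (Callithrix jacchus) is a New World primate. The 10 genes were YAP1, WWTR1, TEAD1, TEAD2, TEAD3, TEAD4, LATS1, LATS2, AMOTL2 and CCN1, chosen by symbol from the 30811 genes listed. Each symbol matched 1 Ensembl gene ID, so none was dropped. RNA from 3 libraries of 1 group was sequenced. The study's title describes attempts to obtain extended pluripotent stem cells, and its design text calls the cells EPSC-like. All 3 libraries carry the same labels apart from the replicate number. Their titles share the prefix No40, whose meaning is not stated, so the libraries may come from 1 line. The labels give no medium, passage or age, and there are no parental or control cells. Whether they are separate cultures is not labelled, so their spread may be technical.

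The Hippo pathway is a kinase cascade that restrains the coactivators YAP and TAZ. The kinases encoded by LATS1 and LATS2 phosphorylate YAP and TAZ, which are then held in the cytoplasm or degraded. Unphosphorylated YAP and TAZ enter the nucleus and bind the TEAD proteins, which supply the contact with DNA. In the mouse preimplantation embryo, YAP and TEAD4 activate Cdx2 in the outer cells that become trophectoderm, while Hippo signalling keeps YAP out of the nucleus in inner cells. The activity of the pathway is set largely by phosphorylation and location of the proteins, which RNA levels do not measure.

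Total counts were 52327369, 55224475 and 40593244 in replicates 1, 2 and 3. Replicate 3 stood apart from the other two libraries. Of 22703 genes counted in at least 1 of both libraries, 10.4% were lower and 6.39% higher in replicate 3 than in replicate 1 by at least 1.5-fold (exact conditional binomial test, Benjamini-Hochberg adjusted p under 0.05). Against replicate 2 the shares were 10.6% lower and 6.86% higher. Replicate 2 against replicate 1 gave 0.662% lower and 0.462% higher. This test takes counting error as the only source of spread and compares these libraries, not conditions. All 9 matched markers of pluripotent cells were above 1 CPM (counts per 1000000 counts), as were 78.3% of all tested genes with a symbol. POU5F1 stood at 974, 972 and 1185 CPM in replicates 1, 2 and 3. LIN28A had 674, 725 and 350 CPM, LIN28B 742, 774 and 470, and SALL4 135, 134 and 58.5. These 3 were lower in replicate 3 than in each other library.

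All 10 genes were above 1 CPM (edgeR quasi-likelihood test, with Benjamini-Hochberg adjustment over 23432 genes). Of all genes tested, 56% were above and 37.8% below that level. Of those with a symbol, 78.3% were above and 16.1% below, so a count of 10 of 10 is read against a high background. Leaving out any 1 library, replicate 3 included, gave 10 of 10 again. CPM is not corrected for gene length, and no transcript lengths were used, so the levels are not compared between genes.

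YAP1 encodes the coactivator YAP. Its level was 111, 116 and 61.6 CPM in replicates 1, 2 and 3, from 5797, 6378 and 2511 counts. Replicate 3 was low and the other two lay close together. The mean was 96.1 ± 30.03 CPM (SD, n = 3). YAP1 was lower in replicate 3 than in replicate 1, with a ratio of 0.556 and a 95% interval from 0.530 to 0.582 (adjusted p = 1.41e-140, exact conditional binomial test). The ratio to replicate 2 was 0.531, with an interval from 0.507 to 0.556. Such intervals hold the error of counting alone, with each read taken as independent. Reads copied from 1 molecule would make them too narrow.

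WWTR1 encodes TAZ, the paralog of YAP. It had 225, 251 and 137 counts, which made 4.30, 4.56 and 3.36 CPM in replicates 1, 2 and 3, with a mean of 4.08 ± 0.63 CPM (SD, n = 3). Replicate 3 again held the lowest value, but WWTR1 did not pass the 1.5-fold requirement. Against replicate 1 it did not pass the adjusted test either (adjusted p = 0.0522, exact conditional binomial test), though the unadjusted interval below leaves out 1. Its ratio of replicate 3 to replicate 1 was 0.781, with an interval from 0.627 to 0.970, and to replicate 2 it was 0.736, from 0.593 to 0.910. WWTR1 was the only one of the 10 that was not called above 5 CPM. Its log2 level was 2.03, and it was not distinguished from 5 CPM (adjusted p = 0.106, edgeR quasi-likelihood), where 44.5% of all genes tested were above.

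The ratio of YAP1 to WWTR1 within a library needs no length correction when libraries are set against each other. On the log2 scale it was 4.68, 4.66 and 4.19 in replicates 1, 2 and 3. Replicate 3 lay 0.48 log2 units under the mean of the other two, which differed from each other by far less. With 1 library on one side this difference has no replicate check.

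**Figure D1:**
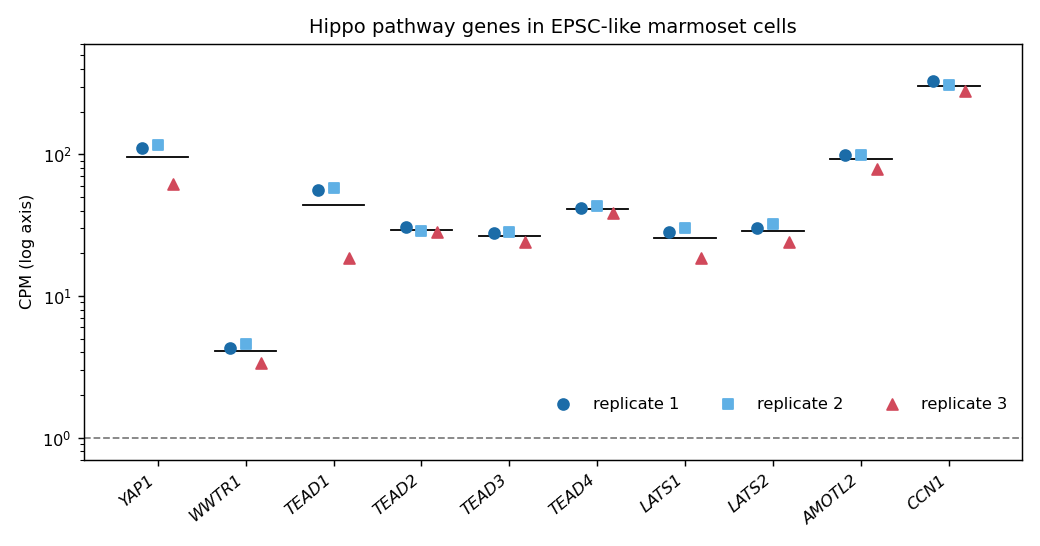
CPM of each of the 10 genes in the 3 libraries on a log axis, with the mean as a black bar and 1 CPM as a dashed line. Circles, squares and triangles are replicates 1, 2 and 3; TEAD1 and YAP1 show the widest gap between the triangle and the other points, at 18.5 and 61.6 CPM in replicate 3.

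The 4 TEAD genes encode the DNA-binding partners of YAP and TAZ. TEAD1 had the largest coefficient of variation of the 10 genes, with 56.1, 57.4 and 18.5 CPM in replicates 1, 2 and 3 from 2933, 3156 and 755 counts. Its mean was 43.99 ± 22.1 CPM (SD, n = 3), and that coefficient was 50.2%. TEAD1 was lower in replicate 3 than in replicate 1, with a ratio of 0.330 and an interval from 0.304 to 0.358 (adjusted p = 4.88e-193, exact conditional binomial test). Against replicate 2 the ratio was 0.323, with an interval from 0.298 to 0.349. Of the 13719 genes that averaged 1 CPM or more, 1.34% had a log2 ratio of replicate 3 to replicate 1 as low as that of TEAD1 or lower. The same share was 7.30% for YAP1 and 14.01% for LATS1, and ran from 26.04% to 43.3% for the other 7 genes.

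TEAD2, TEAD3 and TEAD4 had lower coefficients of variation than TEAD1, and none differed by 1.5-fold between any pair of libraries. TEAD2 had 30.8, 28.6 and 28.2 CPM in replicates 1, 2 and 3, with a mean of 29.2 ± 1.39 CPM (SD, n = 3). Its coefficient of variation of 4.78% was the lowest of the 10. TEAD4, which in mouse embryos is needed to specify trophectoderm, stood at 41.8, 43.01 and 38.3 CPM, with a mean of 41.03 ± 2.44 CPM. TEAD3, a paralog highly expressed in human placenta, stood at 27.7, 28.4 and 23.9 CPM, with a mean of 26.7 ± 2.44 CPM. The interval for the ratio of replicate 3 to replicate 1 ran from 0.847 to 0.987 for TEAD2, from 0.793 to 0.935 for TEAD3 and from 0.859 to 0.979 for TEAD4. A ratio as low as that of TEAD1 lay outside these 3 intervals.

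Together the TEAD genes held 156, 157 and 109 CPM in replicates 1, 2 and 3. TEAD1 gave 35.9% and 36.5% of these counts in replicates 1 and 2, and 17.01% in replicate 3. The exact binomial 95% interval in replicate 3 was 15.9% to 18.2%, against 34.8% to 36.9% in replicate 1. The share of TEAD4 was 26.7%, 27.3% and 35.2%, that of TEAD2 19.7%, 18.2% and 25.9%, and that of TEAD3 17.7%, 18.04% and 21.9%. The larger shares of these 3 genes in replicate 3 stood beside CPM values that were no higher there, since the shares of 4 genes sum to a whole. Shares are of counts and are not corrected for length, so they show how the mixture of reads moved, not which protein dominates.

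**Figure D2:**
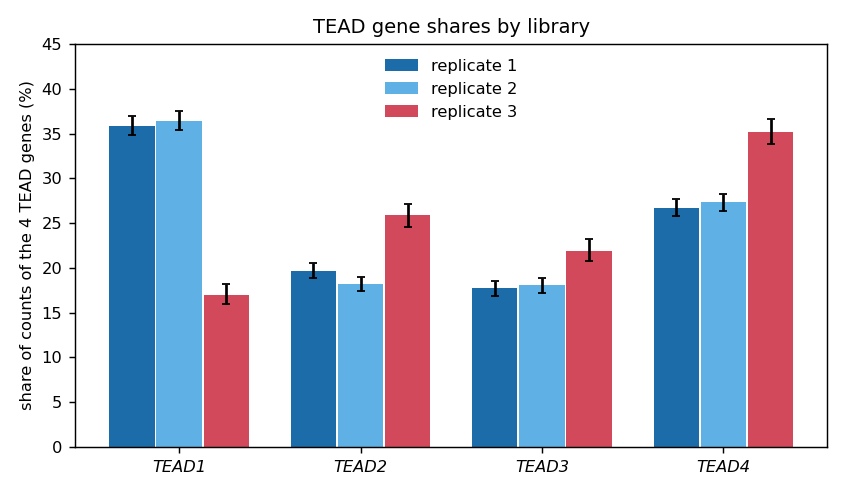
Share of the counts of the 4 TEAD genes that each gene took in replicates 1, 2 and 3, in percent, with exact binomial 95% intervals as error bars. The bar of TEAD1 is at 17.01% in replicate 3, while the bars of the other 3 genes are higher there than in replicates 1 and 2.

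The LATS genes encode the kinases that act directly on YAP and TAZ. LATS1 had 28.3, 30.04 and 18.6 CPM in replicates 1, 2 and 3, with a mean of 25.6 ± 6.15 CPM (SD, n = 3). LATS1 was lower in replicate 3 than in replicate 1, with a ratio of 0.659 and an interval from 0.603 to 0.720, and than in replicate 2, with 0.620 and an interval from 0.568 to 0.676. The first of these calls lies at the edge of the 1.5-fold requirement and was lost with DESeq2 size factors, where the log2 ratio was -0.58.

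LATS2, which is also a known YAP and TEAD target, stood at 30.1, 32.1 and 23.98 CPM, with a mean of 28.7 ± 4.23 CPM (SD, n = 3). Replicate 3 held the lowest value, but the ratios of 0.796 and 0.747 to replicates 1 and 2 did not reach 1.5-fold. The log2 ratio of LATS1 to LATS2 was -0.09, -0.10 and -0.37 in replicates 1, 2 and 3. It was thus lower in replicate 3 by 0.27 log2 units than the mean of the other two.

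AMOTL2 encodes an angiomotin-like scaffold that binds YAP at cell junctions, and its gene is itself a known target. Its level was 99.5, 98.1 and 78.3 CPM in replicates 1, 2 and 3, with a mean of 91.97 ± 11.8 CPM (SD, n = 3). CCN1 encodes a secreted matrix protein, formerly CYR61, and is a widely used readout of YAP and TEAD activity. It stood at 331, 307 and 277 CPM, with a mean of 305 ± 27.04 CPM. Replicate 3 was lowest for both, without a 1.5-fold difference. The ratio of replicate 3 to replicate 1 was 0.837 for CCN1, with an interval from 0.817 to 0.857, and 0.787 for AMOTL2, from 0.753 to 0.823. CCN1 was the only one of the 10 that differed between replicates 2 and 1 beyond counting error when no fold was required, with a ratio of 0.927 (adjusted p = 9.55e-10, exact conditional binomial test).

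In total 3 of the 10 genes, YAP1, TEAD1 and LATS1, had lower levels in replicate 3 than in replicate 1, and none was higher. Among the 9825 genes with a symbol that averaged 1 CPM or more, 15.8% were lower and 3.98% higher. Against replicate 2 the same counts were 3 lower and 0 higher, with a background of 16.2% lower and 4.2% higher. The 2 comparisons share replicate 3. Between replicates 2 and 1, 0 of the 10 were called at 1.5-fold, with a background of 0.387% lower and 0.183% higher, and 3 of the 10 had an unadjusted p under 0.05. All 10 log2 ratios of replicate 3 to replicate 1 were under 0, from -1.60 for TEAD1 to -0.13 for TEAD4, as were 58.7% of those background genes. Against replicate 2 all 10 were under 0 too, with a background of 58.8%, while 3 of the 10 were under 0 between replicates 2 and 1, with a background of 48.3%. The median log2 ratio of replicate 3 to replicate 1 was -0.34 for the 10 genes and -0.10 for the background. To replicate 2 the medians were -0.37 and -0.10. With no fold required, 9 of the 10 were lower in replicate 3 against replicate 1 and 9 against replicate 2, where 44.5% and 45.1% of the same background genes were.

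**Figure D3:**
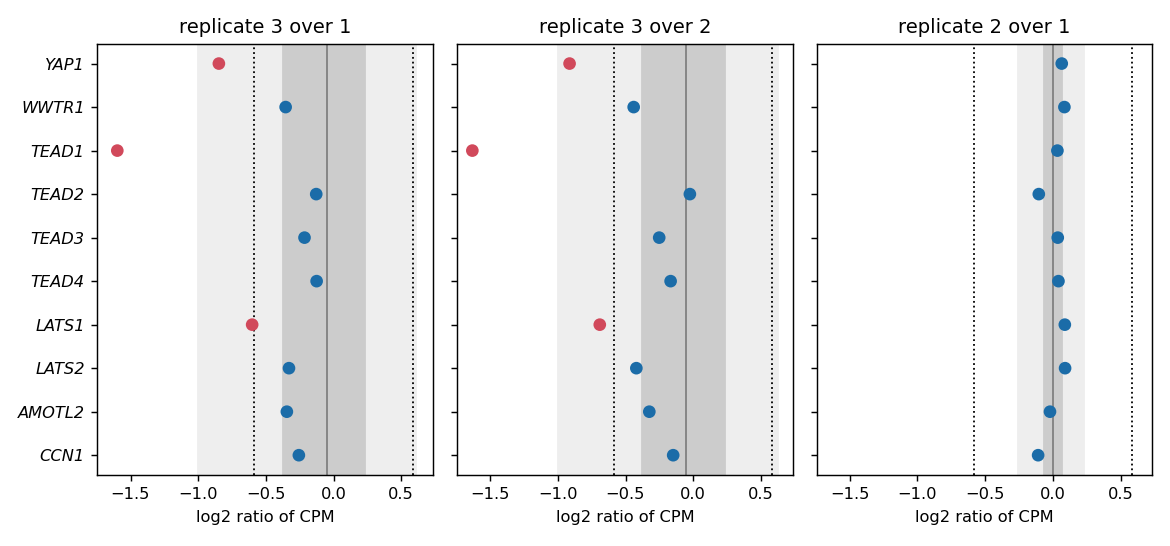
Log2 ratio of CPM for each gene in the 3 pairs of libraries. Red points passed the test and 1.5-fold (dotted lines), blue points did not; the grey bands hold the middle 50% and 90% of the 13719 genes that averaged 1 CPM or more and the grey line is their median. YAP1, TEAD1 and LATS1 are red in both pairs with replicate 3, and no point is red for replicate 2 over 1.

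Further genes of the pathway were taken from 7 lists of Hippo components, regulators and targets. The lists held 116 different genes beside the 10, of which 91 had a symbol match. Of these, 82 were above 1 CPM, 3 were below it, 5 were not distinguished from it and 1 had no counts (edgeR quasi-likelihood, Benjamini-Hochberg over all genes). That is 90.1% above, where 78.3% of tested genes with a symbol were, a background that also holds for each list below. In replicate 3, 28 of the 91 were lower than in replicate 1 and 2 were higher, and 25 were lower than in replicate 2 and 1 higher. These are 30.8% and 27.5% lower, where 15.8% and 16.2% of the genes with a symbol that averaged 1 CPM or more were, a background that leaves out the few list genes of lower level. No test of these lists against other genes was made. With the DESeq2 Wald test 77 were above 1 CPM, and the calls of ANKRD1, FAT2, PARD6A, RASSF2 and RASSF6 were lost (adjusted p from 0.0508 to 0.159).

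In the core kinase cassette, which activates LATS1 and LATS2, all 5 matched genes were above 1 CPM. STK3, which encodes the kinase MST2, stood at 89.7 ± 7.35 CPM, and SAV1, its scaffold, at 52.5 ± 3.15 CPM (SD, n = 3). Neither differed by 1.5-fold between libraries. STK4, which encodes the paralog MST1, had 655, 674 and 185 counts in replicates 1, 2 and 3, and MOB1B, a LATS coactivator, had 1345, 1544 and 389. Both were lower in replicate 3 than in each other library, by log2 ratios from -1.43 to -1.56. They make 2 of the 5, beside the background of 15.8% and 16.2%.

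All 18 matched upstream activators were above 1 CPM, and 6 were lower in replicate 3 than in replicate 1, against 5 for replicate 2, beside the background of 15.8% and 16.2%. The kinase gene MAP4K4 stood at 305 ± 50.7 CPM and WWC1, which encodes the LATS-binding scaffold KIBRA, at 116 ± 6.60 CPM (SD, n = 3). Neither differed by 1.5-fold. TAOK1, which encodes a kinase that activates MST1 and MST2, had 1848, 1851 and 400 counts, and PTPN14, which encodes a phosphatase that binds YAP, had 2071, 2226 and 529. FRMD6, WWC3 and RASSF2 were lower in replicate 3 as well. WWC3 had 336, 290 and 36 counts, or 6.42, 5.27 and 0.883 CPM, so its value in replicate 3 lay under 1 CPM.

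Of the 16 matched genes of FAT cadherins, polarity and junctions, 14 were above 1 CPM, and FAT3 and CRB1 were below it. In replicate 3, 5 of the 16 were lower than in replicate 1 and 4 than in replicate 2, beside the background of 15.8% and 16.2%. The protocadherin gene FAT1 had 553, 541 and 217 CPM in replicates 1, 2 and 3, and TJP1, which encodes the tight junction protein ZO-1, at 242, 247 and 136 CPM. Both were lower in replicate 3, with log2 ratios to replicate 1 of -1.35 and -0.82, and so were FAT4 and FAT2. PARD6A, with 104, 139 and 154 counts, was higher in replicate 3 than in replicate 1 alone.

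All 9 matched angiomotins and adaptors were above 1 CPM. In replicate 3, 2 of the 9 were lower than in each other library, beside the background of 15.8% and 16.2%. The angiomotin gene AMOT had 54.6, 55.3 and 24.2 CPM in replicates 1, 2 and 3, and AMOTL1 had 37.1, 36.4 and 11.9 CPM. Both were lower in replicate 3, with log2 ratios to replicate 1 of -1.17 and -1.64, where that of AMOTL2 was -0.35. The 14-3-3 gene YWHAE, whose family holds phosphorylated YAP in the cytoplasm, stood at 1257 ± 27.8 CPM (SD, n = 3). YWHA genes have close copies, and how reads that map to several places were counted is not given in the sources used here, so their levels are uncertain.

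All 22 matched genes of the STRIPAK phosphatase complex, which opposes MST kinases, and of YAP turnover were above 1 CPM. In replicate 3, 6 of the 22 were lower than in replicate 1 and 7 than in replicate 2, beside the background of 15.8% and 16.2%. The phosphatase scaffold gene PPP2R1A had 695, 716 and 764 CPM in replicates 1, 2 and 3. Its paralog PPP2R1B stood at 114, 119 and 61.1 CPM and was lower in replicate 3, as were SIKE1, STRN, STRIP2 and NEDD4. BTRC, which encodes a ubiquitin ligase subunit that recognises YAP, had 791, 977 and 419 counts and was lower in replicate 3 than in replicate 2 alone.

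Among TEAD cofactors and competitors, 3 of 8 matched genes were above 1 CPM. VGLL4, which encodes a competitor of YAP for TEAD proteins, had 29.7, 32.4 and 34.6 CPM in replicates 1, 2 and 3, with no difference of 1.5-fold. VGLL1, with 55, 47 and 10 counts, did not differ from 1 CPM by the test and was lower in replicate 3 than in each other library, by log2 ratios of -2.04 and -1.75. VGLL2 had no counts. RUNX2 was below 1 CPM. TP73, with 32, 45 and 57 counts, was higher in replicate 3 than in each other library.

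Of the 17 matched YAP and TEAD targets, which include CCN1, AMOTL2 and LATS2, 15 were above 1 CPM and 2, RBMS3 and TGFB2, were not distinguished from it. Their log2 ratios of replicate 3 to replicate 1 ran from -3.52 for ANKRD1 to 0.25 for FJX1. ANKRD1, which encodes an ankyrin repeat protein and is another standard readout of YAP, had 198, 216 and 13 counts in replicates 1, 2 and 3. These made 3.78, 3.93 and 0.319 CPM, so its level above 1 CPM came from replicates 1 and 2. Its log2 ratio of replicate 3 to replicate 1 was -3.52, while that of CCN1 was -0.26. AXL, a receptor tyrosine kinase gene, had 78.5, 80.1 and 41.9 CPM, and MYOF, CRIM1 and PTPN14 were lower in replicate 3 as well. In all, 6 of the 17 were lower in replicate 3 against replicate 1 and 5 against replicate 2, beside the background of 15.8% and 16.2%. The list median of the log2 ratio was -0.33 to replicate 1 and -0.42 to replicate 2, where the background medians were both -0.10.

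**Figure D4:**
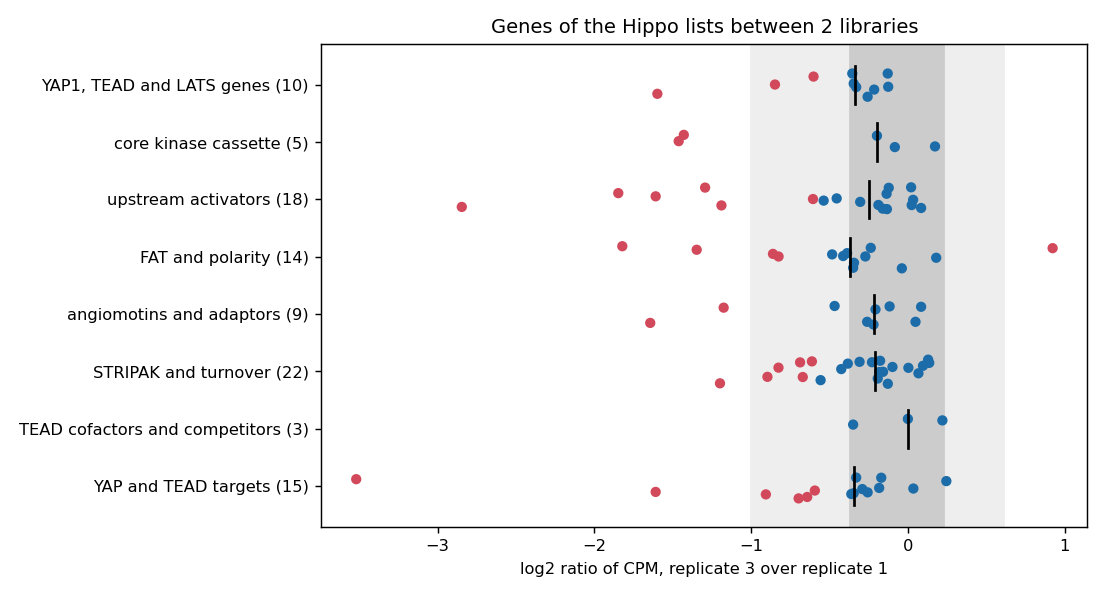
Log2 ratio of CPM of replicate 3 over replicate 1 for genes of each list that averaged 1 CPM or more, with the number plotted in brackets. Red points differed between the 2 libraries by the test and 1.5-fold, black bars are list medians and grey bands hold the middle 50% and 90% of all genes with that mean; ANKRD1, at -3.52 among the YAP and TEAD targets, lies farthest to the left.

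Markers of other cell types moved with these values. Of 7 matched trophectoderm markers, 3 were lower in replicate 3 against replicate 1 and 4 against replicate 2. Their summed level was 72.3, 77.2 and 47.1 CPM in replicates 1, 2 and 3, of which TFAP2C made 37.7, 42.1 and 28.0 CPM. CDX2, a target of YAP and TEAD4 in mouse trophectoderm, had 25, 29 and 0 counts, and TP63 had 2, 6 and 0. A count of 0 in replicate 3 allows up to 0.0736 CPM. Of 9 matched endoderm markers, 6 were lower against each other library, and AFP had no counts. The sums were 794, 776 and 477 CPM, of which COL4A1 made 544, 536 and 354 and LAMA1 222, 210 and 110. Of 9 matched feeder and fibroblast markers, 8 were lower against replicate 1 and 5 against replicate 2. Their sums were 765, 712 and 509 CPM, of which COL1A1, not called in either pair, made 546, 516 and 404 CPM. Of 9 matched pluripotency markers, 3 were lower against each other library, with sums of 6630.4, 6832 and 6527 CPM. The background share of lower genes was again 15.8% against replicate 1 and 16.2% against replicate 2. That background leaves out genes that averaged under 1 CPM. The marker counts include such genes, namely CDX2, TP63, FOXA2, AFP and FAP. The part of other cells in the low values of YAP1, TEAD1 and LATS1 in replicate 3 was not tested. Fewer cells of a type and less RNA per cell cannot be told apart in such bulk libraries.

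The genes whose 3 values lay nearest to those of YAP1 were PPP2R1B, ATP2B4 and ATF7IP, among 9818 genes that have a symbol and average 50 counts or more. Their Euclidean distances over the log2 CPM of the 3 libraries were 0.051, 0.058 and 0.062. ATP2B4, a plasma membrane calcium pump gene, had 115, 117 and 62.0 CPM in replicates 1, 2 and 3. Nearest to CCN1 were QARS1, GSN and IGFBP4, at distances of 0.093, 0.098 and 0.098. QARS1, a tRNA synthetase gene, stood at 312, 305 and 284 CPM. With 3 libraries, of which 2 are close to each other, such nearness describes a level and 1 difference.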

How the data were processed

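RNA was measured in 3 libraries of 1 group. The submitters' processing notes name Trim Galore (0.4.0), STAR (2.5.3a) and, for the counts, featureCounts (1.5.2). The authors deposited raw counts, 1 file per library, by Ensembl gene ID. The build, annotation, strand setting and handling of multi-mapping reads were not given in the sources used here.

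CPM values used TMM factors (edgeR 4.0.16, R 4.3.3). Each of the 23432 genes with any count was tested against 1 CPM, two-sided, by an F statistic built from the deviances of an intercept-only glmQLFit with trended dispersion, since glmQLFTest takes no model of 1 column. Poisson p-values were lower bounds for genes of low variance. Pairs of libraries were compared by a two-sided exact conditional binomial test. P-values were Benjamini-Hochberg adjusted over all genes tested, calls needed an adjusted p under 0.05, and pair calls also 1.5-fold with 0.5 added to each count. Both tests were tested on simulated data. DESeq2 1.42.0 served as an alternative. Intervals are exact at 95% and cover counting error only.

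Symbols were matched for 12660 of 30811 IDs. Lengths were not used, so the planned order of levels was not computed, and paralog ratios were only set between libraries. Named were all 10 genes, of each Hippo list the 4 of highest CPM, the lowest 2 and those called in replicate 3 against both others, with a subset printed. Of marker lists the highest 2 and the lowest were to be named, also in part. PARD6A, BTRC, FJX1, VGLL2, CDX2, AFP, LIN28A, LIN28B, EPCAM and PRDM14 fell outside this rule and were named after their values were seen. Members and lists were chosen with earlier results of these data known. Plots used matplotlib 3.10.9 (Python 3.11.15).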

Additional observations from a re-analysis of the deposited data

How the results depend on the processing

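All 10 genes were above 1 CPM with DESeq2 size factors, the DESeq2 Wald test, the filterByExpr filter and without any 1 library. Fits on 2 libraries have little information on spread. At a level of 5 CPM 9 passed, and WWTR1, with a log2 level of 2.03, was not distinguished from that level (adjusted p = 0.106, edgeR quasi-likelihood). Without the 1.5-fold requirement, the genes lower in replicate 3 were 9 against replicate 1 and 9 against replicate 2, in place of 3 each, and 1 was lower in replicate 2 than in replicate 1, in place of 0. This follows from the requirement itself. With DESeq2 size factors the call of LATS1 between replicates 3 and 1 was lost (log2 ratio -0.58), while YAP1 and TEAD1 were called under each alternative tried. Halved counts, as if both mates of a pair had been counted, and a minimum of 10 counts in the pair changed no call of the 10 genes. The log2 ratio of YAP1 to WWTR1 ran from 4.43 to 4.67 and that of LATS1 to LATS2 from -0.23 to -0.09 with 1 library left out. No paired analysis was possible because all libraries form 1 group. The order of levels by length, and coding lengths, were not run, as no transcript lengths were used. Depth limits WWTR1 most, at 137 to 251 counts.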
